A study of Mus musculus with 8 samples.

Results

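The Hoxa and Hoxb genes examined here are 10 homeobox genes of the clusters on mouse chromosomes 6 and 11, namely Hoxa5, Hoxa7, Hoxa9, Hoxa10, Hoxb2, Hoxb3, Hoxb4, Hoxb5, Hoxb6 and Hoxb8. They were taken by symbol as genes of these clusters known from blood stem cells, and all 10 were found among the 24222 symbols of the count tables. The samples were haematopoietic stem cells from bone marrow, sorted by FACS 2 weeks after knockout was induced. The groups were 4 mice with a triple knockout of Kdm4a, Kdm4b and Kdm4c (KO) and 4 WT control mice (WT), all labelled C57BL6, with 1 RNA-seq library from each mouse. The sources used here do not state the sort gate, the driver of the deletion or the exons removed. A value below is either a count of reads or a level in CPM, the count scaled to a common library total after TMM adjustment for composition.

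HOX proteins are transcription factors that bind DNA through a homeodomain, mostly together with TALE partners such as MEIS1. Genes lie in a cluster in the order in which they are used along the body axis, and genes at the same place in different clusters form a paralogue group that shares a number. In blood, HOX genes are active in stem and early progenitor cells and are shut off as cells mature. HOXA9 and HOXB4 are known for their effects on self-renewal, and HOXA9 also for its high level in leukaemia. The KDM4 enzymes remove methyl groups from histone H3, among them the H3K9 mark of silent chromatin. The comparison asks how RNA of these HOX genes stands after knockout of the genes of 3 such enzymes was induced.

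The Hoxa cluster lies on the minus strand of chromosome 6 (mm10), and its numbering starts at the 3′ end. In the GENCODE annotation Hoxa5 spans chr6:52201754-52204587, Hoxa7 chr6:52214491-52221854, Hoxa9 chr6:52223100-52231089 and Hoxa10 chr6:52231197-52240854. The Hoxb cluster lies on the plus strand of chromosome 11, where Hoxb8 spans chr11:96281905-96285315, Hoxb6 chr11:96292476-96301569, Hoxb5 chr11:96303336-96306121, Hoxb4 chr11:96318267-96321638, Hoxb3 chr11:96323326-96347930 and Hoxb2 chr11:96350525-96354012. Some of the members share exon bases with RNA of the opposite strand. For Hoxb3 this was 52.9% of exon bases and for Hoxb2 27.3%, both with Hoxb3os, a symbol that was not in the tables used here. For Hoxa7 it was 20.4%, with Hoxaas3, which had at most 5 counts in any library. Whether the counting used strand is not given, so reads of these genes and of their antisense partners may not have been separated.

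Promoter sequence from RefSeq (build GRCm38.p6) was at hand for 6 of the 10 members in 7 windows, each cut here to the 250 bases before the transcription start. These windows were searched on both strands for CACGTG, the E-box, and CCAAT, the NF-Y box, since factors of both kinds are known from work on the human HOXB4 promoter. The windows of 3 genes are shown, chosen by their RNA values, and a link between sequence and RNA was not tested. Hoxa5 had the highest level per length of annotated exon, Hoxa9 the smallest p among the members, and Hoxb4 a fold on the other side of 1 from most of them. Capitals mark a CCAAT match, here read on the opposite strand.
Hoxa5, minus strand, chr6:52204588-52204837: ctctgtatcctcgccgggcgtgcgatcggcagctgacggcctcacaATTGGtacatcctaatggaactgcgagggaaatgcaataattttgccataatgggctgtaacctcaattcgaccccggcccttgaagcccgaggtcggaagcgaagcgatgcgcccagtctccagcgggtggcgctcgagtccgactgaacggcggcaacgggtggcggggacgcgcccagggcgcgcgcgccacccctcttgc
Hoxa9, minus strand, chr6:52227371-52227620: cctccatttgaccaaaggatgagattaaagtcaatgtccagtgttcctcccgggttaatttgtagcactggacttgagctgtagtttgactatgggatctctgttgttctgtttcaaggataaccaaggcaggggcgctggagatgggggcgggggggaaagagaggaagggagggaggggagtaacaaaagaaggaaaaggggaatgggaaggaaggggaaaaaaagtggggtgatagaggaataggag
Hoxb4, plus strand, chr11:96318017-96318266: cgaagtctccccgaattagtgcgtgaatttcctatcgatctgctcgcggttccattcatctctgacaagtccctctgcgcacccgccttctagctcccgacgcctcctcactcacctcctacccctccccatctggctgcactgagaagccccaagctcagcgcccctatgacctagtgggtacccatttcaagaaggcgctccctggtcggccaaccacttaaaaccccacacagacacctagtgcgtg
The Hoxa5 window held 28 CpG dinucleotides, the Hoxb4 window 14 and the Hoxa9 window 3, against a median of 6 over 32851 windows of the same length in that table. CCAAT was found in 3 of the 7 member windows, those of Hoxa5, Hoxb8 and the second start of Hoxa10, and in 33.9% of all windows. CACGTG was found in 0 of the 7 and in 6.02% of all windows. The windows of Hoxa7 and Hoxa9 and the second of Hoxa10 lie inside the GENCODE spans of those genes, since RefSeq places these starts further downstream. These are matches of letters in these windows only.

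RNA of the targeted genes was lower in all 4 KO libraries than in each of the 4 WT libraries. Kdm4c was at 36.0 ± 10.6 CPM in KO and 115 ± 22.7 CPM in WT (SD, n = 4 mice each), Kdm4a at 20.3 ± 3.86 and 36.3 ± 9.56 CPM, and Kdm4b at 3.73 ± 1.79 and 10.2 ± 2.44 CPM. Of these only Kdm4c passed edgeR's quasi-likelihood test over all genes (adjusted p = 2.06e-05). Library totals were 5541504 to 14872493 counts in KO and 3594315 to 6044289 counts in WT, KO mouse 3 being the deepest. The 20 coding HOX genes of both clusters considered here had 1198 to 2276 counts per library in KO and 771 to 1537 in WT, before scaling for depth. Scaled, the Hoxa genes summed to 128 ± 28.2 CPM in KO and 148 ± 20.6 CPM in WT (SD, n = 4 each). The Hoxb genes summed to 61.6 ± 12.6 and 67.5 ± 6.39 CPM, and the groups overlapped for both clusters. Among 10 markers of stem cells the summed level was 3314 to 3677 CPM in KO and 3985 to 4224 CPM in WT, with no overlap, and 8 of the 10 had a fold below 1, while 0 passed edgeR's test. All 10 were detected, so the sorted type carried its markers, and the part of this list in the HOX values was not tested.

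Along both clusters the RNA came from a stretch of neighbouring genes and stopped sharply at the 5′ side, and in Hoxb also at the 3′ side. To compare genes, levels were divided by exon length and are given as CPM per kb, as a mean over the 8 libraries. In the Hoxa cluster Hoxa5 was highest at 12.9 CPM per kb, followed by Hoxa7 at 9.60, Hoxa9 at 7.17 and Hoxa10 at 5.42. Past Hoxa10 the next genes were nearly silent: Hoxa11 had 0 to 2 counts in any library and Hoxa13 had 0 in all of them. On the 3′ side Hoxa2, Hoxa3 and Hoxa4 stood at 4.26, 2.28 and 1.75 CPM per kb. Hoxa6, between Hoxa5 and Hoxa7, was at 4.86 CPM per kb, with libraries from 0.96 to 11.3.

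The Hoxb cluster was carried by 3 adjacent genes. Hoxb3 was at 6.63, Hoxb4 at 6.20 and Hoxb5 at 5.29 CPM per kb over the 8 libraries. Their neighbours were far lower, with Hoxb2 at 0.496 on the 3′ side and Hoxb6 at 0.826 and Hoxb8 at 0.575 on the 5′ side. On the 5′ side the step lies between Hoxb5 and Hoxb6, adjacent genes on the chromosome. Hoxb5 was above Hoxb6 in 4 of 4 KO libraries and 4 of 4 WT libraries, and their ranges did not overlap. On the 3′ side the ranges of Hoxb3 and Hoxb2 did not overlap either. Hoxb3 had no library under 4.34 and Hoxb2 none over 1.18 CPM per kb. Hoxb3, Hoxb4 and Hoxb5 made up 28.9%, 31.9% and 23.8% of the cluster's level per kb in KO, and 36.0%, 27.2% and 28.4% in WT, with SDs between 3.20 and 7.79 percentage points (n = 4 each). Hoxb9 had 0 or 1 count per library in KO and 0 to 5 in WT, and Hoxb13 had 0 throughout.

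**Figure D1:**
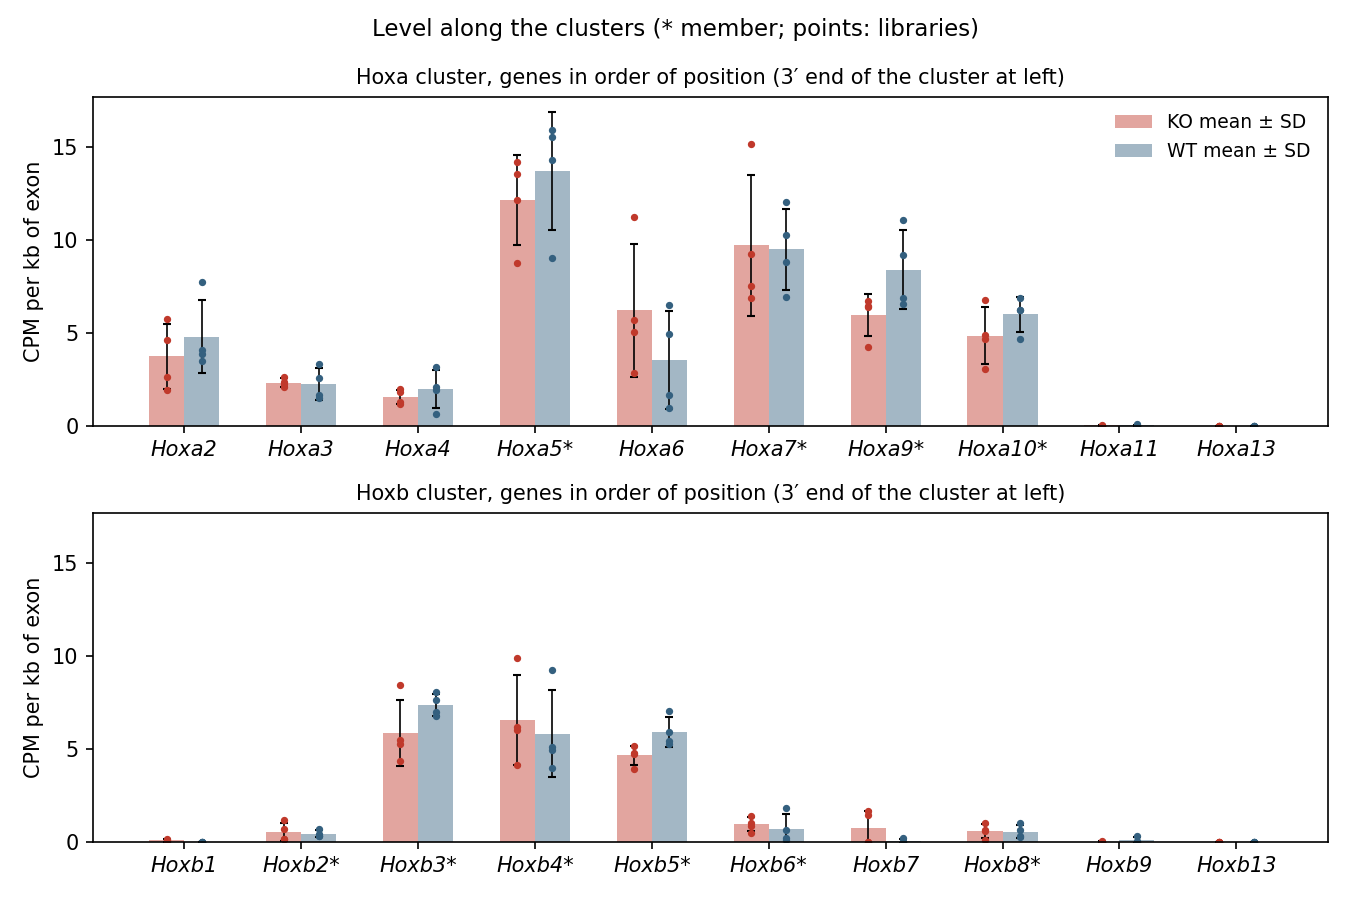
CPM per kb of exon (vertical axis) for 10 coding genes each of the Hoxa cluster (top) and Hoxb cluster (bottom) in order along the chromosome; bars are the mean of 4 KO mice (red) and 4 WT mice (blue) with SD, points are libraries and asterisks mark the 10 members. Hoxa levels run from Hoxa2 to Hoxa10 with a peak at Hoxa5, and Hoxb levels are concentrated in Hoxb3, Hoxb4 and Hoxb5.

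In order of level per kb, the members were Hoxa5, Hoxa7, Hoxa9, Hoxb3, Hoxb4, Hoxa10 and Hoxb5, then Hoxb6, Hoxb8 and Hoxb2. Within the upper 7, neighbours in this order were not separated beyond their spread, since the ranges of each pair overlapped. Hoxa5 was above Hoxa7 in 6 of 8 libraries and Hoxa7 above Hoxa9 in 7 of 8, but Hoxa9 was above Hoxb3 in only 4 of 8. The upper 7 were all above the lower 3, with no library of the upper 7 under 3.03 and none of the lower 3 over 1.85 CPM per kb. This order uses all annotated exons; with the length of the principal transcript, a choice made after seeing the data, Hoxa7 stood above Hoxa5, Hoxb4 was the lowest of the upper 7 and Hoxb2 the highest of the lower 3. The upper 7 then had no library under 3.86 and the lower 3 none over 2.52 CPM per kb. On that length Hoxa9 stood at 12.4 and Hoxb2 at 1.06 CPM per kb, and Hoxa3 at 5.29, above Hoxa2 at 4.26.

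No member passed the test between KO and WT. Of the 8 members that passed the filter on low counts, 0 were called by edgeR's quasi-likelihood test with adjusted p under 0.05, against 0.583% of the 11498 genes tested. DESeq2, which called 1.34% of all genes, and limma voom also called 0 members. At an unadjusted p under 0.05 there was 1 member, Hoxa9, against 11.2% of all genes. Of the 8, 6 had a fold below 1, against 49.8% of all genes. Their median log2 fold change was -0.30, and that of all genes was 0.0021. Without KO mouse 3 that median was -0.09. A lower value in sorted cells can come from fewer cells that hold the RNA or from less RNA in each, which cannot be told apart here.

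**Figure D2:**
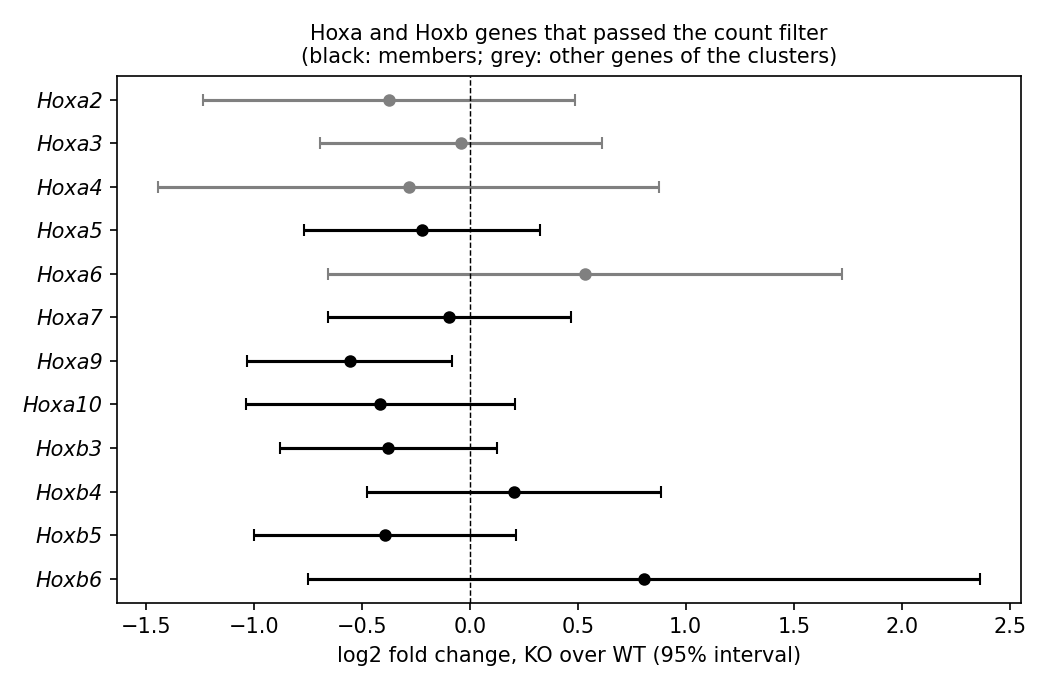
log2 fold change of KO over WT from edgeR (horizontal axis) with its 95% interval for the 12 Hoxa and Hoxb genes that passed the count filter, in order along each cluster; black marks members and grey the other genes of the clusters. The intervals cover 0 for all but Hoxa9, which lies between -1.03 and -0.08 before adjustment over all genes.

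At the 5′ part of the active Hoxa stretch, Hoxa9 and Hoxa10 had the lowest folds of the 4 Hoxa members. Hoxa2, not a member and further to the 3′ side, had a fold of 0.772, and a trend of the folds with position was not tested. Hoxa9, a regulator of stem cell self-renewal, had 35.6, 35.8, 23.7 and 37.3 CPM in KO mice 1 to 4, against 36.4, 51.2, 38.4 and 61.6 CPM in WT mice 1 to 4. The KO libraries lay in the lower part of the range, and the groups met only in that KO mouse 4 was above WT mouse 1. The means were 33.1 ± 6.30 CPM in KO and 46.9 ± 11.8 CPM in WT (SD, n = 4 each), a fold of 0.680 with a 95% interval of 0.490 to 0.944. By edgeR's quasi-likelihood test the unadjusted p was 0.0231 and the adjusted p 0.346, which ran from 0.294 to 0.641 over the 17 alternatives. Leaving out 1 library took the unadjusted p of Hoxa9 above 0.05 in 3 of 8 cases, to 0.0506 without WT mouse 2, 0.121 without KO mouse 3 and 0.157 without WT mouse 4. The exact two-sided permutation p was 0.0571, where 0.0286 is the smallest that 4 against 4 mice can give.

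Hoxa10, known for its role in myeloid and megakaryocytic progenitors, had 15.3, 16.0, 9.89 and 22.1 CPM in KO, against 15.3, 20.4, 22.5 and 20.3 CPM in WT. The groups overlapped, with KO mouse 3 the lowest of all and KO mouse 4 next to the highest. Its fold was 0.750 (95% interval 0.487 to 1.16), with an edgeR adjusted p of 0.663.

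Further toward the 3′ side, the groups of Hoxa7 and Hoxa5 overlapped, as did those of Hoxa9 and Hoxa10. Hoxa7 had 21.6, 26.6, 19.8 and 43.6 CPM in KO, against 29.5, 19.9, 25.3 and 34.7 CPM in WT. A single library, KO mouse 4, held the highest value and KO mouse 3 the lowest, so the KO group spanned the WT group. The mean was 27.9 ± 10.9 CPM in KO and 27.3 ± 6.29 CPM in WT (SD, n = 4 each), while the fitted fold was 0.937 (95% interval 0.635 to 1.38). Hoxa5, whose human counterpart is known from the choice between erythroid and myeloid fates, had 25.4, 26.6, 16.4 and 22.8 CPM in KO, against 17.0, 26.9, 29.2 and 29.8 CPM in WT. Each group held 1 low library, KO mouse 3 and WT mouse 1, and the ranges overlapped. The fold of Hoxa5 was 0.859 (95% interval 0.588 to 1.25, edgeR adjusted p = 0.828).

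Of the Hoxb genes, Hoxb5 was the member whose groups did not overlap. Hoxb5, known in mouse as a marker of long-term stem cells, had 13.3, 14.4, 10.96 and 13.2 CPM in KO, against 15.1, 16.5, 14.7 and 19.7 CPM in WT. Every KO library was below every WT library, by a narrow margin between KO mouse 2 and WT mouse 3. Among the members tested this held for 1 of 8, against 5.81% of all genes. Without WT mouse 1 it held for 3 (Hoxa5, Hoxa9 and Hoxb5), against 10.4% of all genes, and without KO mouse 4 for 3 (Hoxa9, Hoxb3 and Hoxb5), against 8.81%. The fold was 0.762 (95% interval 0.501 to 1.16) and the edgeR adjusted p 0.675. The exact two-sided permutation p was 0.0286, the smallest possible, which any gene without overlap gives with 4 against 4 mice. Hoxb5 had 71 to 164 counts per KO library and 59 to 122 per WT library. With counts thinned to the smallest library the groups overlapped, but this was a single random draw.

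Hoxb3 and Hoxb4, adjacent genes whose products are both linked to stem cell self-renewal, stood on different sides of a fold of 1. Hoxb3 had 18.4, 23.4, 22.4 and 35.8 CPM in KO, against 34.3, 28.8, 32.5 and 29.7 CPM in WT. The KO mice other than mouse 4 lay below all WT mice, and KO mouse 4 lay above them. The fold of Hoxb3 was 0.770 (95% interval 0.544 to 1.09, edgeR adjusted p = 0.610). Hoxb4 had 10.6, 15.4, 15.9 and 25.4 CPM in KO, against 10.2, 23.8, 13.1 and 12.7 CPM in WT. The ranges nearly coincided, each with 1 high library, KO mouse 4 and WT mouse 2. Its fold was 1.15 (95% interval 0.719 to 1.85, edgeR adjusted p = 0.891), and whether the folds of Hoxb3 and Hoxb4 differ was not tested.

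**Figure D3:**
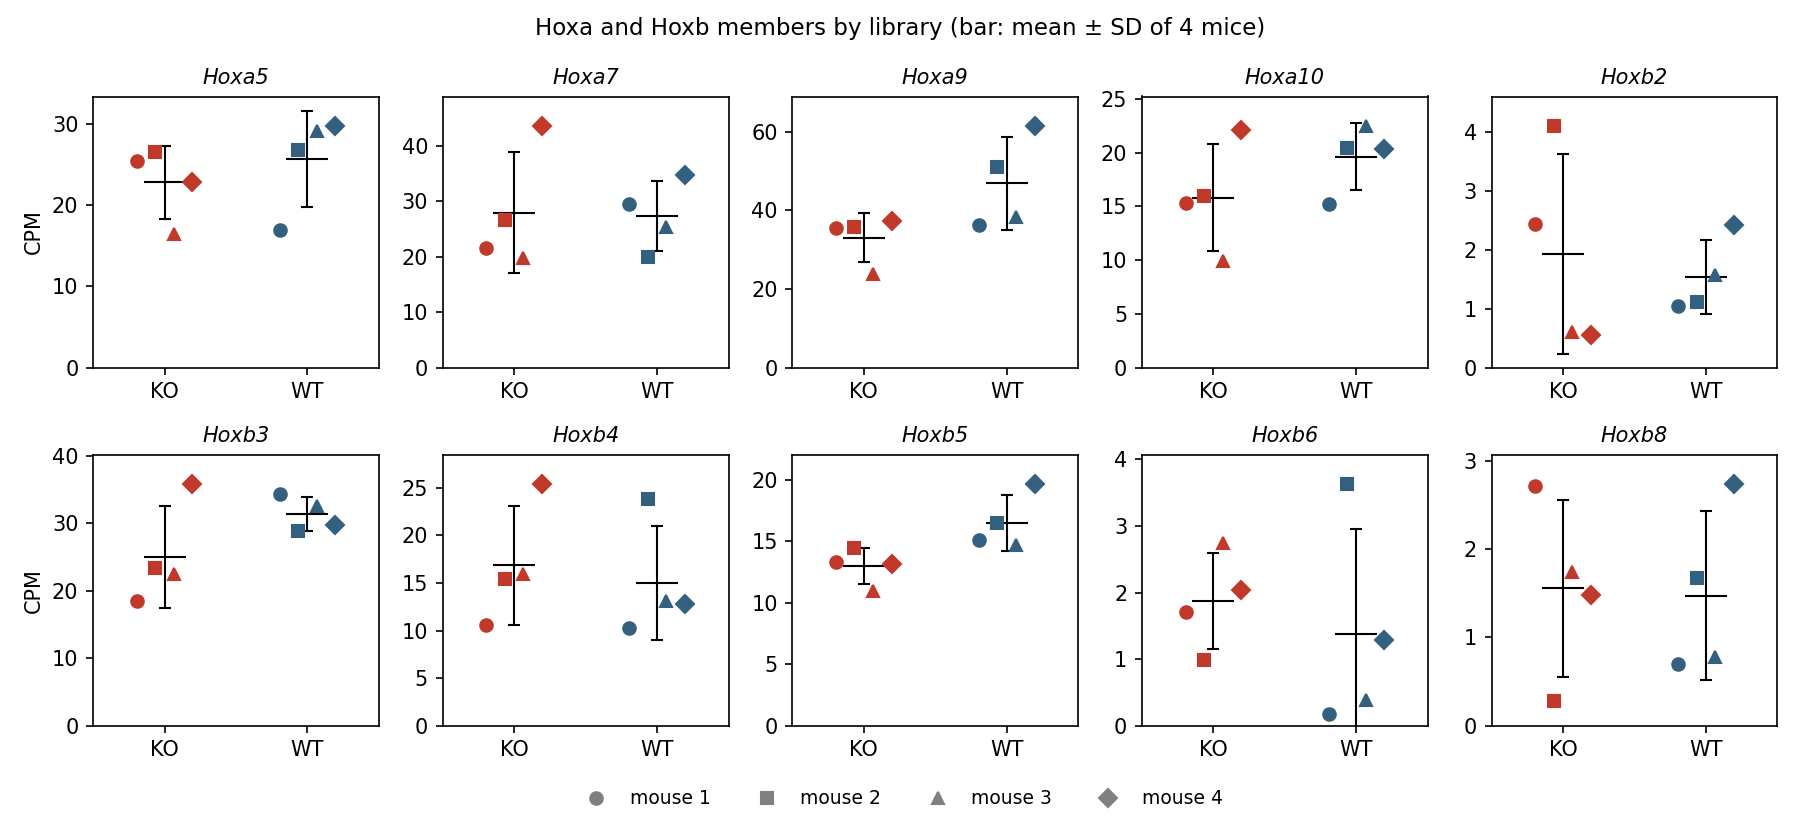
CPM (vertical axis, from 0) of the 10 members in 4 KO mice (red) and 4 WT mice (blue), with a symbol per mouse number; mouse numbers only name the mice, and black bars are the mean with SD, cut at 0. The groups overlap for each member but Hoxb5, where KO libraries lie at 10.96 to 14.4 and WT libraries at 14.7 to 19.7 CPM.

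The 3 weakest members rested on few reads. Hoxb6, a gene linked to myeloid differentiation, had 12, 7, 41 and 11 counts in KO mice 1 to 4, against 1, 13, 2 and 8 counts in WT mice 1 to 4. It passed the filter through 3 KO libraries and 1 WT library, so its fold of 1.75 is a value from a gene admitted mostly by its higher group; the 95% interval was 0.595 to 5.14 and the edgeR adjusted p 0.763. Single libraries moved its log2 fold change of 0.81 to 1.64 without WT mouse 2, 0.40 without WT mouse 1 and 0.40 without KO mouse 3. Hoxb8, best known for arresting myeloid maturation when overexpressed, had 19, 2, 26 and 8 counts in KO, against 4, 6, 4 and 17 in WT. Hoxb2, better known from hindbrain patterning, had 17, 29, 9 and 3 counts in KO, against 6, 4, 8 and 15 in WT. For both genes the groups overlapped, and neither passed the filter, reaching 1.67 CPM in 2 KO libraries and 1 WT library where 4 libraries were needed. A library's floor of 3 counts equals 0.201 to 0.557 CPM in KO and 0.484 to 0.839 CPM in WT, which covers counting error only.

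Within KO, mouse 3 held low values and mouse 4 high values of several members. KO mouse 3 was the lowest of the 8 libraries in all 4 Hoxa members and in Hoxb5, which makes 5 of the 8 members tested. Over all genes tested it was the lowest in 12.8%. KO mouse 4 was the highest in Hoxa7, Hoxb3 and Hoxb4, against 11.97% of all genes. WT mouse 4 was the highest in as many members, Hoxa5, Hoxa9 and Hoxb5, against 9.11% of all genes, and WT mouse 1 was the lowest in Hoxb4 and Hoxb6, against 13.8%. The median centred log2 level of the members was -0.41 in KO mouse 3 and 0.36 in KO mouse 4, while the WT libraries lay between -0.13 and 0.28, inside the KO range. Without KO mouse 3 the log2 fold change of Hoxa9 was -0.37, against -0.56 with it, that of Hoxa10 -0.15 against -0.41, that of Hoxa5 -0.03 against -0.22, and that of Hoxa7 0.09 against -0.09. Without WT mouse 4 that of Hoxa9 was also -0.37.

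**Figure D4:**
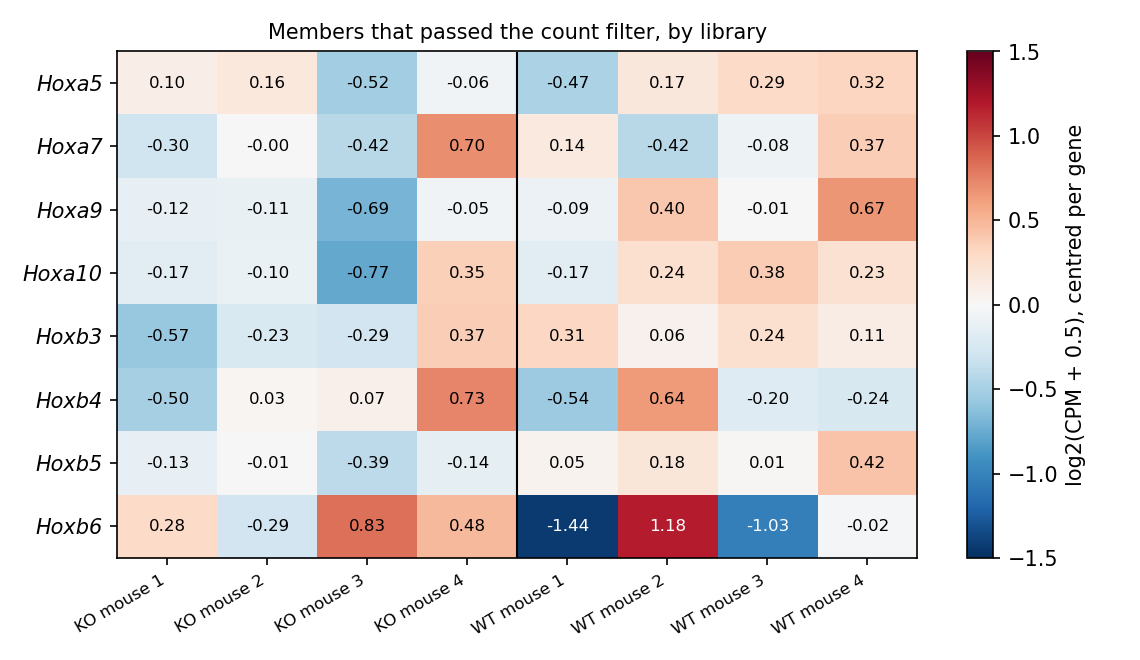
log2(CPM + 0.5), centred per gene, for the 8 members that passed the count filter (rows) in 4 KO and 4 WT libraries (columns). The column of KO mouse 3 is blue in all 4 Hoxa rows and Hoxb5, and that of KO mouse 4 is red in Hoxa7, Hoxb3 and Hoxb4.

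The spread within a genotype exceeded what counting reads alone would give in most members. For Hoxa7 the variance of counts was 31.3 times that of counting in KO and 6.62 times in WT, and for Hoxa9 it was 14.2 and 17.1 times. For Hoxb5 it was 1.83 times in KO and 1.82 in WT. This ratio grows with depth, which was unequal, so it does not compare the spread of the genotypes or of genes. The 95% intervals show what the design can resolve: among the 7 members of higher level, their lower ends reached folds from 0.487 to 0.719 and their upper ends from 0.944 to 1.85.

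The other genes of both clusters gave no call either. Of 10 further coding genes of the Hoxa and Hoxb clusters considered here, 4 passed the filter, Hoxa2, Hoxa3, Hoxa4 and Hoxa6, and 0 were called by edgeR, DESeq2 or voom, nor did any have an unadjusted p under 0.05 by edgeR. Hoxa6 had the largest log2 fold change of these, 0.53, with a 95% interval across 0 and means of 5.42 ± 3.13 CPM in KO and 3.08 ± 2.31 CPM in WT (SD, n = 4 each). Hoxb7 was patchy, with 0, 18, 33 and 0 counts in KO mice 1 to 4 against 0, 0, 0 and 2 in WT mice. The 9 coding genes of the Hoxc cluster held 79 counts in all over the 8 libraries and the 9 of the Hoxd cluster 16, against 7176 for 10 genes of Hoxa and 3434 for 10 of Hoxb.

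Among 9 partners and competitors of HOX proteins at DNA, 5 were tested and 0 were called by edgeR, DESeq2 or voom, with 0 at an unadjusted p under 0.05 by edgeR. Meis1, which with HOXA9 drives leukaemia in mice, was at 263 ± 24.5 CPM in KO and 299 ± 41.3 CPM in WT (SD, n = 4 each), a log2 fold change of -0.18. Pbx3, another partner linked to HOXA9 in leukaemia, was at 47.7 ± 10.0 CPM in KO and 36.4 ± 6.86 CPM in WT, and Pbx2 at 40.1 ± 9.13 and 46.0 ± 14.4 CPM. Of the 5, 3 had a fold above 1, and their median log2 fold change was 0.10.

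Regulators that act on HOX genes were likewise without a call. Of 25 listed, 22 were tested, 11 of them with a fold above 1, and 0 were called by edgeR, DESeq2 or voom. At an unadjusted p under 0.05 by edgeR there were 3 of the 22, Mllt3, Nup98 and Ezh2, where 11.2% of all genes passed the same threshold. Mllt3, a component of the transcription elongation machinery that sustains human stem cells, had 370, 459, 407 and 464 CPM in KO, against 525, 574, 570 and 502 CPM in WT. All KO libraries were below all WT libraries, with a log2 fold change of -0.35 (SE 0.108, edgeR adjusted p = 0.163). Nup98, a nuclear pore gene fused to HOXA9 in leukaemia, had 299, 261, 311 and 264 CPM in KO, against 240, 224, 233 and 248 CPM in WT, again without overlap, and an edgeR adjusted p of 0.381. These were the 2 of 22 regulators without overlap, against 5.81% of all genes. Ezh2, the Polycomb methyltransferase, was at 208 ± 26.5 CPM in KO and 169 ± 26.0 CPM in WT, and Kmt2a, the MLL1 enzyme that maintains HOX transcription, at 1068 ± 93.8 and 1112 ± 61.4 CPM.

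Markers of other marrow cell types were mostly low, but Car2 of the erythroid list was high and some others were not low. As a mean over the 8 libraries, Tek and Pecam1 of the endothelial list were at 78.8 and 42.7 CPM. Tfrc of the erythroid list was at 66.3 CPM and Cd74 of the macrophage and dendritic list at 61.8 CPM. Procr, the lowest of the 10 stem cell markers, was at 55.4 CPM. Summed levels of stroma markers were 16.2 to 24.1 CPM in KO and 14.4 to 29.5 CPM in WT, and those of 10 neutrophil and monocyte markers 33.3 to 74.3 and 28.8 to 55.2 CPM, with overlap in both. Markers of B, T and NK cells summed to 23.8 to 35.4 CPM in KO and 10.9 to 35.2 CPM in WT. Endothelial markers summed to 147 to 159 CPM in KO and 125 to 150 CPM in WT, and those of mast cells, basophils and eosinophils to 2.23 to 5.35 and 3.23 to 14.5 CPM, with Tpsb2 at 0. Macrophage and dendritic markers summed to 83.8 to 142 CPM in KO and 39.0 to 89.8 CPM in WT, with Siglech at 0, but 3 of the 4 tested were called by edgeR, in both directions. Cd68 had a fold of 2.97 (adjusted p = 0.0348) and Cd74 one of 2.26 (adjusted p = 0.0369), whereas Mrc1 had a fold of 0.139 (adjusted p = 0.0198). These calls were lost in 9 of 17 alternatives for Cd68, 6 of 17 for Cd74 and 7 of 15 for Mrc1, most of them with 1 library left out. Vcam1, the tested marker of this list that was not called, had a fold of 0.343 without overlap (edgeR adjusted p = 0.135). It was at 2.69 CPM in KO and 7.75 CPM in WT. Erythroid markers summed to 1304 to 1505 CPM in KO and 2255 to 2464 CPM in WT without overlap, with Hbb-bs and Hba-a1 at 0. Nearly all of that sum was Car2, a carbonic anhydrase, at 1306 ± 84.9 CPM in KO and 2286 ± 111 CPM in WT (SD, n = 4 each), the 1 erythroid marker of 5 tested that was called (fold 0.571, edgeR adjusted p = 4.21e-06). Of the erythroid markers tested besides Car2, Car1 had a fold of 0.284 without overlap (edgeR adjusted p = 0.132), at 1.93 CPM in KO and 8.11 CPM in WT. Epor had a fold of 0.681, Klf1 one of 0.898 and Tfrc one of 1.03. These marker genes were named after their values were seen. The part of these lists in the HOX values was not tested.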

How the data were processed

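Each library came from 1 mouse. Per the labels' protocols, total RNA was amplified as cDNA with the Nugen Ovation kit and sheared, and reads were mapped with STAR (2.4.0d-2) and counted with htseq-count (0.6.1galaxy1); mm10 is the build that the submitters' processing notes name. The sources used here state neither the annotation nor the strand setting. The deposited values are raw counts per gene symbol, without molecular identifiers.

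R 4.3.3 and edgeR 4.0.16 were used. Genes that passed filterByExpr (minimum count 10, total 15) were scaled by TMM and compared by genotype with the robust quasi-likelihood test, two-sided, with Benjamini-Hochberg adjustment over 11498 genes and a threshold of 0.05. Levels are TMM-scaled CPM. The standard error is the log2 fold change over the square root of F, and intervals are 95%. Level per length used the union of GENCODE exons. Permutation tests enumerated all splits of log2(CPM + 0.5). The procedure was tested on simulated data.

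Alternatives were DESeq2 1.42.0, DESeq2 size factors, unscaled totals, limma 3.58.1 voom, edgeR's legacy form, filters and omission of each library. Further ones were a single random thinning to 3594315 counts and the replicate number as a block. The members, lists and tests were chosen with earlier results of these data known. The rule for named genes took all members, the other tested Hox genes, Kdm4a, Kdm4b and Kdm4c, Meis1 and Kmt2a, every called gene of the partner and regulator lists and the 3 genes of each with the smallest p. The lists were 9 partners, 25 regulators and markers of 8 cell types. Nothing in the labels says that mice sharing a number were paired. No protein sequences were used here, and some results are not reported here.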

Additional observations from a re-analysis of the deposited data

Results flagged for a closer look

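In 52 groups of 4 libraries, each a gene or cluster sum in 1 genotype, 2 held a library far from the other 3; chance alone gives about 1 in 20. Hoxa9 was at 23.7 CPM in KO mouse 3, against 35.6 to 37.3 CPM in the other KO mice. Hoxa2 was at 13.7 CPM in WT mouse 1, against 6.15 to 7.26 CPM in the other WT mice.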

How the results depend on the processing

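Under all 17 alternatives the count of members called was 0, as were those of partners and regulators. The count over all genes was 67, 154 with DESeq2, 198 with no filter and 36 to 78 when a library was left out, the lowest without WT mouse 3. Members with a fold above 1 were 2, but 4 of 10 with no filter, 3 with DESeq2, 3 with edgeR's legacy form, 1 of 7 with the stricter filter, 1 of 7 with thinned counts, and 2 to 3 with a library left out. Members without overlap were 1, 0 with thinned counts, and 1 to 3 with a library left out; it was 3 without WT mouse 1 and 3 without KO mouse 4. The median log2 fold change of the members ran from -0.37 to -0.09 with a library left out. The sign turned for Hoxa7, at 0.013 with DESeq2, 0.016 with edgeR's legacy form, 0.040 without WT mouse 4 and 0.094 without KO mouse 3, within a range of -0.34 to 0.094 with a library left out. It turned for Hoxa3, at 0.033 with DESeq2, 0.073 with voom, 0.039 with the legacy form, 0.017 without WT mouse 1, 0.22 without WT mouse 4 and 0.032 without KO mouse 3, within -0.205 to 0.22 with a library left out. The causes were not tested. With the replicate number as a block, 57 genes were called, 0 of them members and Cd68 no longer among them, the members' median was -0.27 and Hoxa3 was at 0.068; deviations of mice sharing a number correlated between -0.099 and -0.013, so the numbers gave no sign of pairing. Hoxb2, Hoxb6 and Hoxb8 rested on 1 to 41 counts per library. Within a genotype the variance of their counts was 1.42 to 13.8 times that of counting alone, and the part of depth in this was not tested.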

Other observations

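The Hoxc cluster was close to silent, yet its 9 coding genes together had 23, 11, 21 and 11 counts in KO mice 1 to 4, against 2, 1, 3 and 7 in WT mice 1 to 4. In CPM these sums were 1.40 to 3.29 in KO and 0.280 to 1.13 in WT, without overlap, which was also seen in 5.81% of the single genes tested. Most of the reads were from Hoxc4 and Hoxc10. Hoxc4 had 4, 10, 2 and 8 counts in KO, against 0, 1, 0 and 5 in WT. Hoxc10 had 17, 0, 11 and 0 counts in KO, against 0 in every WT library. Hoxc10 thus gave 17 of the 23 counts in KO mouse 1 and 11 of the 21 in KO mouse 3, and without it the sums of the groups overlap. No gene of the cluster passed the count filter, so none was tested, and these genes were singled out after their values were seen.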
